A study of Mus musculus with 6 samples.

Results

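Relatives of NCAM within the neural immunoglobulin family of adhesion molecules were examined in whole brains that lack NCAM and in wild-type brains. The members were Ncam2, L1cam, Chl1, Nrcam, Cntn1, Cntn2, Alcam, Nptn, Bsg and Icam5, chosen by name, and every probe set whose annotation gave 1 of these symbols and no other was taken. This found 11 of the 12422 probe sets, covering 9 of the 10 genes. No probe set carried the symbol Cntn2 alone, and Cntn2 was not analysed here. Of the 11 probe sets, 9 were bright enough to be tested, 1 for each gene. The other 2, a second probe set each for Ncam2 and Chl1, were too dim.

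The knockout group held 3 males on a C57BL/6J background whose Ncam gene was knocked out constitutively (Ncam-/-), so that every cell carried the deletion from conception on. The wild-type group (Ncam+/+) held 3 males of the same background. The animals numbered 1 and 2 of either genotype were aged 2 months, the one numbered 3 was aged 3 months. Total brain RNA of each animal went onto a separate one-colour Affymetrix array, giving n = 3 animals per genotype.

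Adhesion molecules of the immunoglobulin family stand on the surface of neurons and glia and bind the same or another family member on a neighbouring cell. NCAM, the product of Ncam1, is the best known of them in brain, where it carries polysialic acid and takes part in axon growth, fasciculation and synaptic plasticity. Ncam2 is its closest relative, L1cam, Chl1 and Nrcam form the ankyrin-binding L1 group, contactins are held in the membrane by a lipid anchor, and neuroplastin (Nptn) and basigin (Bsg) act as partner subunits of membrane pumps and transporters. The comparison asked whether transcripts of these relatives differ when NCAM is missing, as they might if they took its place.

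The deposited values are linear signal intensities, scaled so that the mean over the middle 96% was 300.2 on every array, and they are comparable between animals for 1 probe set but not between probe sets. Log2 signals of any pair of arrays correlated between 0.967 and 0.985 over the 7453 tested probe sets. A pair of knockout brains stood apart. Knockout replicate 2 had low cerebellar signal, with a median over 10 cerebellar markers of -1.79 against the wild-type mean on the log2 scale, where the other arrays lay between -0.12 and 0.10. Knockout replicate 1 had high pituitary signal, with a median of 2.64 over 6 markers. Knockout replicates 2 and 3 had 0.21 and 0.46, above -0.06, -0.22 and 0.17 in wild-type replicates 1, 2 and 3. All 6 pituitary markers had higher and all 10 cerebellar markers lower knockout means, and 0 of either list were called. The summed signal of 8 neuronal markers lay between 20502 and 21138 in the knockout group, against 20756 to 21341 in the wild-type group. Glial sums did not overlap, at 13139 to 14082 against 14493 to 14961 for 7 astrocyte markers and 12298 to 13800 against 13927 to 14915 for 8 oligodendrocyte markers. The median of 7 vascular markers was -0.26 to -0.04 in knockout against 0.07 to 0.15 in wild-type brains. The summed signal of 9 vascular markers overlapped, at 1426 to 1784 against 1625 to 1750. So did the median of 7 oligodendrocyte markers, at -0.33 to -0.08 against -0.08 to 0.04. In the astrocyte, oligodendrocyte and vascular lists alike, 5 tested markers had lower and 2 had higher knockout means, and 0 were called. The Gapdh 3' to 5' ratio, a sign of RNA quality, ran from 0.811 to 0.826 in the knockout samples, against 0.768 to 0.798 in wild type. The part of any of these differences in the values below was not tested, and in whole-brain RNA fewer cells of a type and less RNA per cell cannot be told apart.

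The targeted gene served as the check of the labels. The brightest Ncam1 probe set read 276, 209 and 327 in knockout replicates 1, 2 and 3, against 1346, 1448 and 1216 in wild-type replicates 1, 2 and 3. It was the 1 probe set in the whole table that was lower after adjustment (log2 difference -2.26 ± 0.15 (SE), adjusted p = 0.00076 in limma). A less specific Ncam1 probe set read 101, 71.2 and 86.7 in knockout brains against 155, 141 and 145 in wild-type brains. It had no overlap, at 0.624-fold, but did not pass (-0.68 ± 0.15, adjusted p = 0.416 in limma). The remaining Ncam1 probe set was too dim to test, with 3.53, 6.78 and 6.92 in knockout brains against 8.49, 7.76 and 4.54 in wild-type brains, and overlapped. Whether any of these probe sets lies inside the deleted part of the gene was not examined here.

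None of the 9 tested relatives differed between knockout and wild-type brains after adjustment over all probe sets. Adjusted p values ran from 0.802 to 0.979 in limma, and 0 of 9 had an unadjusted p under 0.05, where 6.94% of all tested probe sets did. After adjustment 0.0268% of all tested probe sets were called. The log2 differences, knockout minus wild type, ran from -0.15 for Cntn1 to 0.17 for Alcam, with 5 positive and 4 negative and a median of 0.06, beside a median of 0.00 over all 7453 probe sets. For all 9 genes the signals of the groups overlapped, where 12.9% of all tested probe sets had no overlap. An exact two-sided permutation test of 3 against 3 animals gave p values of 0.2 and above for them, 0.1 being the smallest value this design allows.

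**Figure D1:**
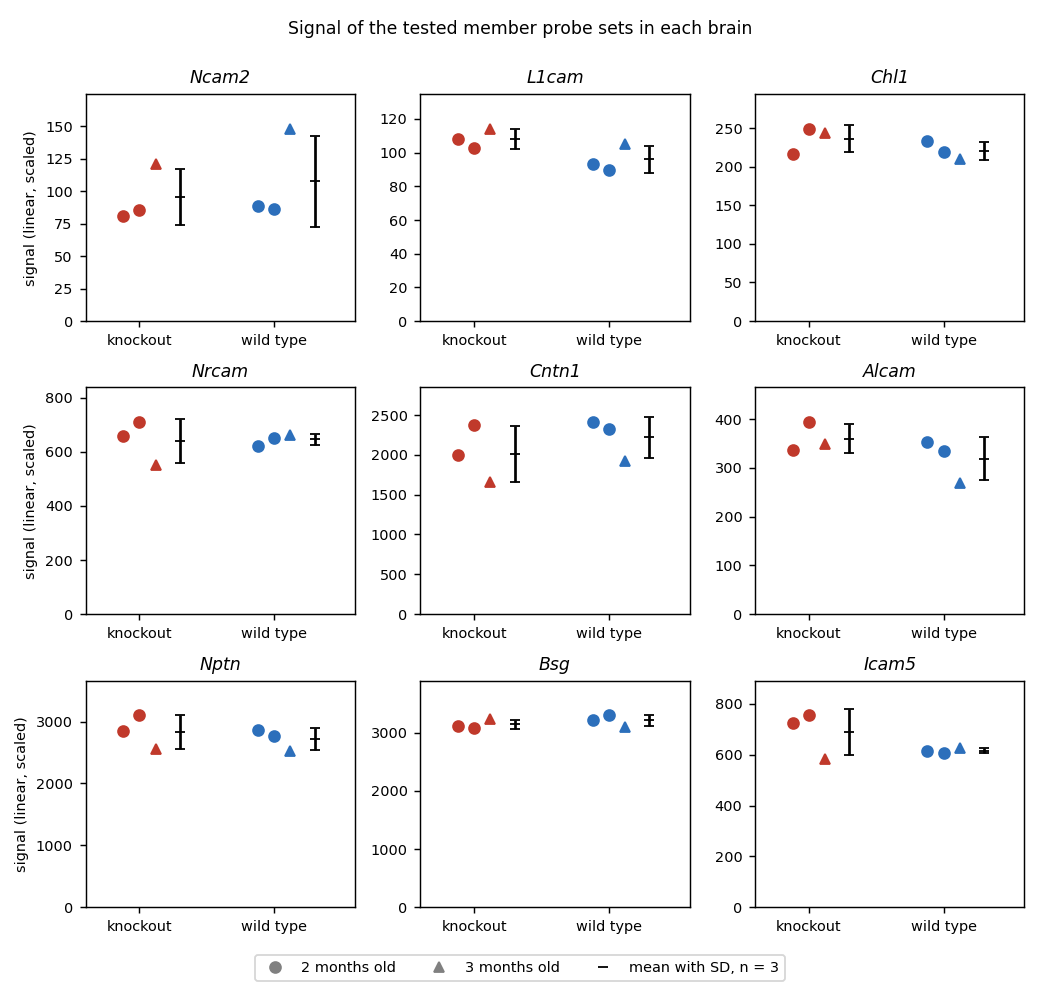
Scaled linear signal (vertical axes, from 0) of the 9 tested member probe sets in each brain, knockout left and wild type right, circles for 2-month-old and triangles for 3-month-old animals, with the mean and SD (n = 3) beside the points. In every panel the ranges of the genotypes overlap, and the triangles lie above all circles for Ncam2 and below them for Cntn1 and Nptn.

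Ncam2, which shares the domain plan of NCAM and is known from the axons of olfactory sensory neurons, read 81.2, 85.4 and 121 in knockout replicates 1, 2 and 3, against 88.5, 86.3 and 148 in wild-type replicates 1, 2 and 3. The groups overlapped, and in each of them the 3-month-old animal was the highest. The log2 difference of -0.13 ± 0.23 did not pass (adjusted p = 0.923 in limma). Its 95% interval, -0.64 to 0.38, was the widest of the 9 and spans 0.643 to 1.30-fold. Setting aside wild-type replicate 3, the brain with the highest signal, turned the sign, to 0.09. The second Ncam2 probe set, below the brightness limit and not tested, read 12.2, 8.56 and 25.3 in knockout brains against 6.98, 6.07 and 8.54 in wild-type brains. These values do not overlap, by a margin of 8.56 to 8.54, as was so in this direction for 7.35% of the 4969 probe sets under the limit.

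None of the 3 measured members of the L1 group passed the test. L1cam, which promotes axon outgrowth and binds ankyrin, read 108, 102 and 114 in knockout brains, against 93.4, 89.5 and 105 in wild-type brains. Knockout replicates 1 and 3 lay above every wild-type animal and knockout replicate 2 did not. The means of 108 in knockout and 96.04 in wild-type brains differed by more than either SD (5.82 in knockout, 8.17 in wild type), but the log2 difference of 0.15 ± 0.14 did not pass (adjusted p = 0.845 in limma), with an interval of -0.17 to 0.47, whose upper end of 1.39-fold was the highest of the 9 genes. Both L1cam and Ncam2 were dim, so that the pseudocount understates their folds, and with a pseudocount of 1 the differences were 0.17 for L1cam and -0.14 for Ncam2, neither past the threshold.

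Chl1, the close homolog of L1, read 217, 249 and 244 in knockout brains, against 233, 219 and 210 in wild-type brains. Knockout replicates 2 and 3 lay above the wild-type range and knockout replicate 1 within it. The log2 difference was 0.09 ± 0.11 (interval -0.15 to 0.34). Its second probe set, of a less specific kind and too dim to test, read 15.1, 5.06 and 20.0 against 4.47, 12.7 and 2.93, with overlap. Nrcam, which gathers sodium channels at nodes of Ranvier together with other partners, read 659, 710.1 and 549 in knockout brains, against 623, 651 and 663 in wild-type brains. Here the knockout animals held both the highest and the lowest value, and the log2 difference was -0.02 ± 0.10 (interval -0.26 to 0.21).

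Cntn1, the lipid-anchored contactin that forms the paranodal junction between axon and myelin loops with Caspr, read 2004, 2372 and 1662 in knockout brains, against 2413, 2324 and 1920.4 in wild-type brains. The lowest value of each genotype came from its 3-month-old animal, and knockout replicates 1 and 2 lay within the wild-type range. The log2 difference of -0.15 ± 0.13 was the lowest of the 9 (interval -0.44 to 0.15, 0.735 to 1.11-fold). It was -0.27 without knockout replicate 2 and -0.02 without knockout replicate 3, and did not pass in either case. Cntnap1, the gene of Caspr, had -0.15 ± 0.13.

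Alcam (CD166), a homophilic adhesion molecule of growing axons that also binds CD6, read 337, 394 and 349 in knockout brains, against 353, 334 and 269.8 in wild-type brains. Knockout replicate 2 was the highest and wild-type replicate 3 the lowest of the 6. The log2 difference of 0.17 ± 0.12 was the largest positive one among the 9 (interval -0.10 to 0.45, adjusted p = 0.802 in limma). Without wild-type replicate 3 it was 0.06.

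Neuroplastin and basigin, both bright, gave the narrowest intervals. Nptn read 2843, 3105 and 2561 in knockout brains, against 2865, 2760.4 and 2526 in wild-type brains. The ranges lay over each other, and the log2 difference was 0.06 ± 0.08 (interval -0.13 to 0.25, or 0.915 to 1.19-fold). Bsg read 3109.7, 3081 and 3233 in knockout brains, against 3219, 3299 and 3103 in wild-type brains. With a log2 difference of -0.03 ± 0.06 its interval reached from 0.898 to 1.07-fold, the tightest bound on any relative. Nptn and Icam5 lie on chromosome 9, as does Ncam1, with 116 and 343 protein-coding genes between each of them and Ncam1 in the RefSeq gene table of GRCm38.p6.

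Icam5 (telencephalin), found on the dendrites of telencephalic neurons, read 726, 756 and 585 in knockout brains, against 617, 607 and 626 in wild-type brains. Knockout replicates 1 and 2 lay above, and knockout replicate 3 below, a narrow wild-type range, so that the SD was 91.4 in knockout and 9.59 in wild-type brains. The log2 difference was 0.15 ± 0.10 (interval -0.09 to 0.38, adjusted p = 0.802 in limma). It was 0.26 without knockout replicate 3 and 0.08 without knockout replicate 2, and passed in neither case. Without knockout replicate 3 the interval, 0.07 to 0.44, excluded 0. It also did so among the 2-month-old animals alone, where the difference was 0.27 (interval 0.06 to 0.48, adjusted p = 0.719 in limma). The median over 7 telencephalic markers, of which 3 had higher and 4 lower knockout means, stood at 0.00, 0.18 and -0.22 in knockout replicates 1, 2 and 3 against 0.10, -0.05 and -0.04 in wild-type replicates 1, 2 and 3. One of the 3, Tbr1, a transcription factor of cortical neurons, read 1034, 1482 and 891 in knockout brains against 1102, 1051 and 818 in wild-type brains. Knockout replicate 2 was the highest and knockout replicate 3 the lowest of the 6 by the list median, as by Icam5, whereas knockout replicate 1 was high for Icam5 alone. The part of tissue composition in the Icam5 values was not tested.

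**Figure D2:**
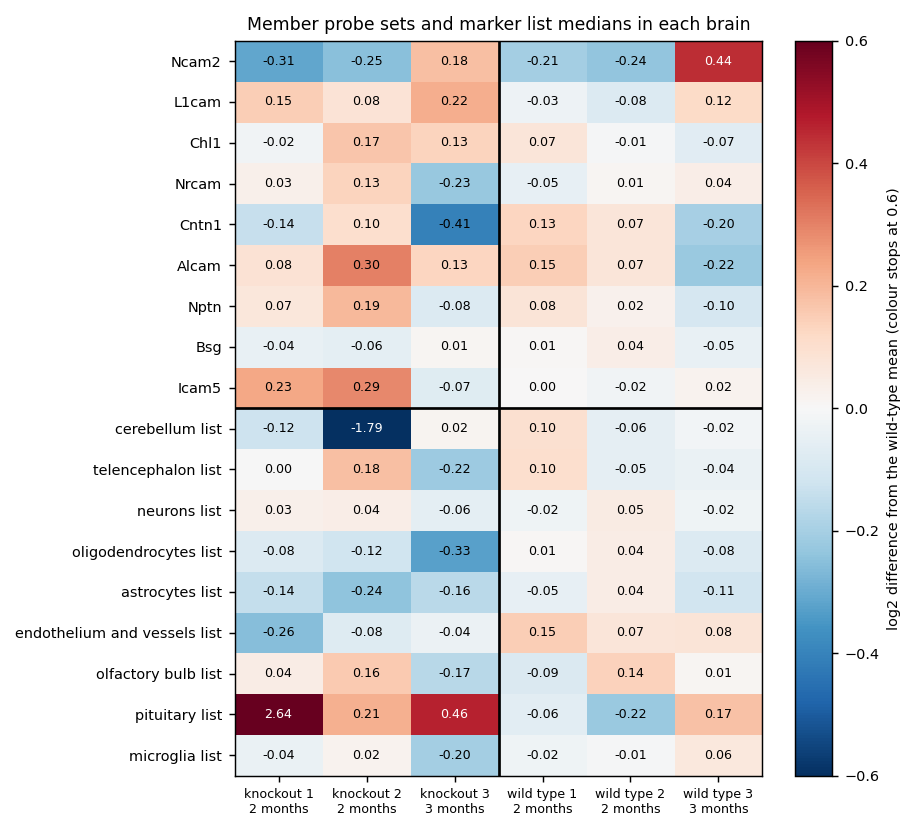
Log2 difference of each brain (columns, with age) from the wild-type mean for the 9 tested members (upper rows) and for the median of each marker list (lower rows), red above and blue below 0, with colour stopping at 0.6. The cerebellar list reads -1.79 in knockout replicate 2 and the pituitary list 2.64 in knockout replicate 1, while members stay between -0.41 and 0.44.

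The sizes of difference compatible with the data were read from the 95% intervals, which are per probe set and not adjusted for their number. For all 9 relatives the upper end lay under 1.5-fold, as it did for 90.5% of all tested probe sets. For 8 of 9 both ends lay within 1.5-fold either way, as for 83.2% of all tested probe sets, the exception being the lower end of Ncam2. The shares of the members are close to these background shares. These intervals are not the detection limit of the adjusted test, which also left uncalled probe sets whose interval excluded 0, such as the less specific one of Ncam1. Protein levels and the amount at the cell surface were not measured.

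**Figure D3:**
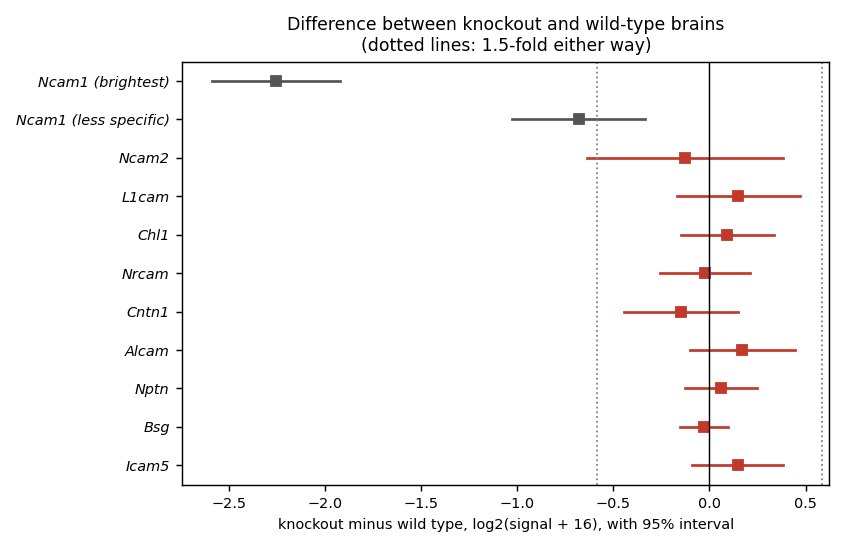
Difference between knockout and wild-type brains in log2(signal + 16), with the 95% interval from limma, for both tested Ncam1 probe sets (grey) and the 9 tested members (red), with dotted lines at 1.5-fold either way. The brightest Ncam1 probe set lies at -2.26, while every member interval includes 0 and ends below the upper dotted line.

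With both knockout brains that stood apart set aside, an alternative chosen after seeing the data, 0 of 9 members passed in a comparison of knockout replicate 3 with the 3 wild-type brains. The log2 differences were then -0.41 for Cntn1, -0.23 for Nrcam, -0.08 for Nptn, -0.07 for Icam5, 0.01 for Bsg, 0.13 for both Alcam and Chl1, 0.18 for Ncam2 and 0.22 for L1cam. The spread of a lone knockout animal is taken from the wild-type group here, and this animal was 3 months old. Of all the brains it also had the lowest oligodendrocyte and telencephalic list medians, at -0.33 and -0.22. The upper interval ends for Ncam2 and L1cam then reached 1.88 and 1.63-fold.

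Age was the other labelled condition, with 1 animal of each genotype at 3 months and 2 of each at 2 months. In a fit with genotype as a covariate, 0 of 9 relatives differed between ages after adjustment, where 0.0268% of all tested probe sets were called. At an unadjusted p under 0.05 there were 3 of 9, namely Ncam2, Cntn1 and Nptn, beside 12.4% of all tested probe sets, and these are the same 3 whose age groups did not overlap, beside 21.7%. Ncam2 read 121 and 148 at 3 months against 81.2 to 88.5 at 2 months (log2 difference 0.56 ± 0.15, or 1.48-fold, adjusted p = 0.264 in limma). Cntn1 read 1662 and 1920.4 at 3 months against 2004 to 2413 at 2 months (-0.34 ± 0.08, 0.788-fold, adjusted p = 0.26 in limma). Nptn read 2561 and 2526 at 3 months against 2760.4 to 3105 at 2 months (-0.18 ± 0.06, 0.881-fold, adjusted p = 0.308 in limma). For each of the 3 the knockout and the wild-type animal at 3 months lay on the same side, which the lack of overlap already implies.

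The other 6 relatives had age differences between -0.20 for Alcam and 0.14 for L1cam, so that 7 of the 9 had a negative value, with Bsg (0.00) and Chl1 (-0.02) next to 0. Over the 9 the median log2 difference was -0.13, beside 0.00 over all probe sets. The fitted difference in genotype effect between ages ran from -0.37 for Nrcam and Icam5 to 0.27 for Alcam in log2. It rests on 1 animal of each genotype at 3 months. Each genotype had 1 animal at 3 months, always the one numbered 3, so age and anything else these animals share cannot be told apart.

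**Figure D4:**
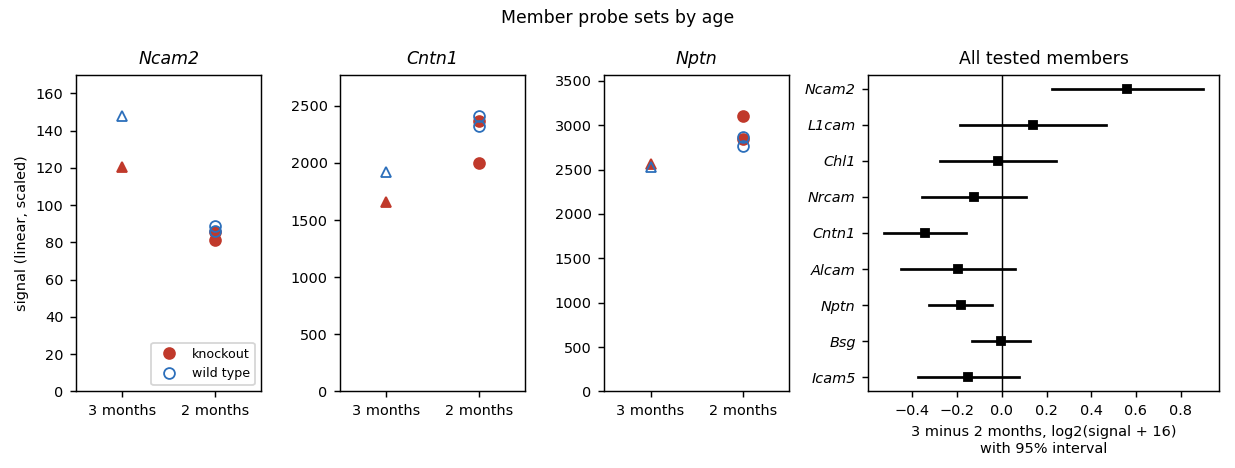
Scaled linear signal of Ncam2, Cntn1 and Nptn at 3 and at 2 months (filled red, knockout; open blue, wild type), and, at the right, the 3 minus 2 months difference in log2(signal + 16) with its 95% interval for the 9 tested members. Both 3-month-old brains lie above all 2-month-old ones for Ncam2 and below them for Cntn1 and Nptn, and the other 6 intervals include 0.

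Further adhesion molecules with immunoglobulin domains were read from a wider list, of which 34 genes had a probe set and 24 were tested. None passed after adjustment in knockout against wild-type brains, 2 of 24 had an unadjusted p under 0.05, beside 6.78% of the 5665 genes read by 1 probe set each, and 14 had higher and 10 lower values (median log2 difference 0.03, beside 0.00 over those genes). Emb, embigin, the nearest relative of basigin and neuroplastin and likewise a partner of lactate transporters, read 305 ± 26.4 in knockout and 257 ± 32.3 in wild-type brains (SD, n = 3 each), a log2 difference of 0.24 ± 0.12. Lrrn1, a leucine-rich repeat membrane protein, had 0.39 ± 0.17, Vcam1, the vascular ligand of leukocyte integrins, 0.19 ± 0.16, and Igsf8, a partner of tetraspanins, 0.06 ± 0.06. A second Vcam1 probe set had -0.22 ± 0.13, lower with no overlap, while the first one overlapped.

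The 4 genes with the lowest p among those with negative values were Mag, Mog, Ptprm and Thy1, none of which passed. Mag, the myelin-associated glycoprotein on the inner myelin membrane, read 831, 816 and 631 in knockout brains against 941, 999 and 1151 in wild-type brains, with no overlap. Its log2 difference was -0.44 ± 0.12 (adjusted p = 0.538 in limma), while a second, dimmer Mag probe set had 0.25 ± 0.19. Mog, the glycoprotein of the outer myelin surface, had -0.22 ± 0.12, Ptprm, a homophilic receptor phosphatase, -0.19 ± 0.11 by one probe set and 0.00 ± 0.14 by another, and Thy1, the abundant lipid-anchored neuronal glycoprotein, -0.08 ± 0.06. The median over 7 oligodendrocyte markers, a list that holds Mag and Mog, stood at -0.08, -0.12 and -0.33 for knockout replicates 1, 2 and 3, against -0.08 to 0.04 for wild-type brains. The contactins Cntn3 and Cntn4 and the immune relatives Icam1 and Icam2 were below the brightness limit and were not tested.

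Of the binding and complex partners of the relatives, 51 genes were on the array, 40 were tested and 0 were called after adjustment. At an unadjusted p under 0.05 there were 4 of 40, beside 6.78% of all genes, and 21 had higher and 19 lower values (median log2 difference 0.00). Ank3, ankyrin G, which tethers L1-group proteins to the spectrin skeleton at the axon initial segment, read 1317, 1130.4 and 1390 in knockout brains against 1078, 1108 and 1083 in wild-type brains. The groups did not overlap and the log2 difference was 0.22 ± 0.09 (adjusted p = 0.719 in limma), but the other Ank3 probe set had 0.01 ± 0.10. Actn1 is an actin cross-linker of a family that binds the tail of Icam5. Its brightest, less specific probe set had 0.29 ± 0.10 with no overlap. Its other probe sets had 0.37 ± 0.20, also with no overlap, and -0.05 ± 0.19, with overlap. Dlg1, a scaffold protein outside the naming rule and named because its groups did not overlap either, had 0.16 ± 0.08. Hspa8, a constitutive chaperone, had 0.21 ± 0.08 and Gria2, an AMPA receptor subunit, 0.14 ± 0.06. The other tested Gria2 probe sets had 0.28 ± 0.08, with no overlap (adjusted p = 0.548 in limma), and 0.15 ± 0.15.

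Atp2b2, a plasma membrane calcium pump of the kind that neuroplastin and basigin accompany, read 489, 471 and 494 in knockout brains against 528, 525 and 542 in wild-type brains. The groups did not overlap, yet the log2 difference was only -0.13 ± 0.08 (adjusted p = 0.763 in limma). Slc16a1, the lactate transporter that basigin carries to the membrane, was below the brightness limit at 47.7 ± 4.66 in knockout and 43.7 ± 2.36 in wild-type brains (SD, n = 3 each). Ptprz1, a receptor phosphatase that binds contactin 1, had 0.10 ± 0.10 and, by a second tested probe set, -0.01 ± 0.11. A dim Ptprz1 probe set, less specific and not tested, was lower without overlap. It read 42.9, 34.8 and 37.0 in knockout brains against 51.2, 51.6 and 51.2 in wild-type brains. Bcan, the matrix proteoglycan brevican, had -0.28 ± 0.12. A second Bcan probe set, less specific and not tested, went the other way without overlap, at 90.2, 82.2 and 64.2 in knockout brains against 44.0, 54.1 and 42.2 in wild-type brains. The kinase Fyn had -0.23 ± 0.13, and Kcna2, a potassium channel next to the paranode, -0.20 ± 0.12 with no overlap. In all 5 of 40 tested partners, 3 higher and 2 lower, had no overlap. The same was true of 2 of the 24 tested family members, both lower. Of all tested probe sets 12.9% had no overlap. Among partners whose brightest probe set lay below the brightness limit, which were not tested, Adam17 alone had no overlap by that probe set. It read 19.6, 20.1 and 18.8 in knockout brains against 55.8, 46.1 and 47.7 in wild-type brains. The share of probe sets under the limit that were lower without overlap was not computed. In the higher direction it was 7.35% of 4969.

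**Figure D5:**
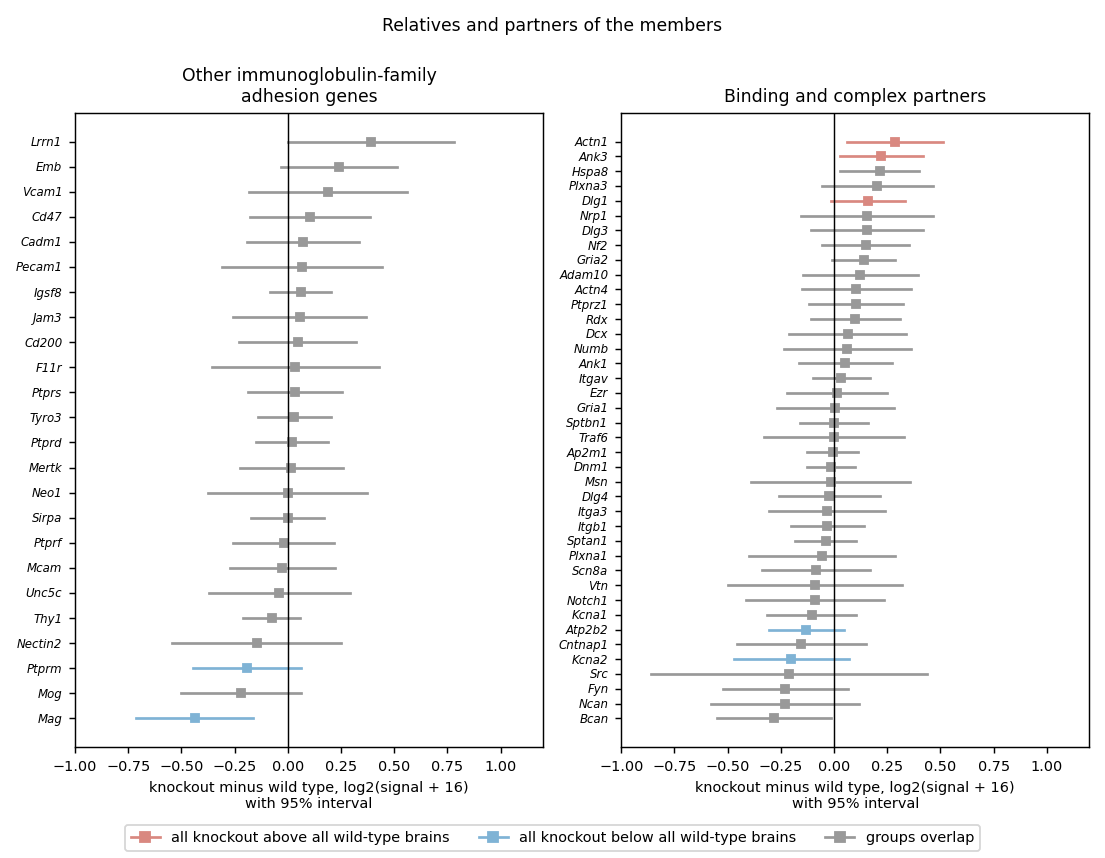
Knockout minus wild type differences in log2(signal + 16), with 95% intervals, of the 24 further family genes (left) and the 40 partners (right) that were tested, 1 probe set per gene. Colour marks genes whose genotypes do not overlap (red higher, blue lower in knockout), and the values run from -0.44 for Mag to 0.39 for Lrrn1 on the left and from -0.28 for Bcan to 0.29 for Actn1 on the right.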

How the data were processed

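The authors deposited linear signal intensity values per probe set, 12488 entries for each of 6 one-colour Affymetrix arrays. The tool named is GCOS 1.4, per the submitters' processing notes (settings: not given in the sources used here). Equal trimmed means show that the arrays had been scaled to 1 target. No detection calls were used.

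After removal of 66 control entries, values were transformed as log2(signal + 16), and 7453 probe sets whose mean reached the 40th percentile (6.46 in log2, 72.2 in signal) were tested. The genotype test was that of limma 3.58.1, run in R 4.3.3 (lmFit, eBayes with intensity trend, two-sided, no covariates, Benjamini-Hochberg over all tested probe sets, threshold 0.05), and ages with genotype as covariate. The procedure was tested on simulated data. Noise in them was independent between probe sets, unlike the marker lists above that shifted together within a brain. Gene names came from the platform annotation, which can be old (10833 probe sets with 1 symbol, 396 with several, 1193 with none). All 10 members were found in the RefSeq table. For wider lists the brightest probe set of a gene was used. Probe sets called less specific here have names that end in _f_at or _r_at. Not every probe set with such a suffix, or with _s_at, _g_at or _i_at, is marked in the text.

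Every member and Ncam1 probe set is named. Of each wider list the 4 genes with the lowest p per direction and fixed partners are named, with Ank2, Tnr, Atp2b1 and Atp2b4 not measured by a probe set of their own. Dlg1, Adam17, Cntn3, Cntn4, Icam1 and Icam2 were named after values were seen. Members and lists were chosen with earlier results of these data known. The labels describe separate individuals. Alternatives were the replicate block, age as covariate, omission of the 3-month-old animals, omission of each array in turn, quantile and median normalisation, pseudocounts of 1 and 64, other filters, no trend, array weights and 1 mean per gene. Figures used matplotlib 3.10.9.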

Additional observations from a re-analysis of the deposited data

How the results depend on the processing

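No tested relative passed in knockout against wild-type brains under any of 19 alternatives (lowest adjusted p = 0.4 in limma), and none between ages under 15 (lowest 0.206). L1cam, Chl1 and Alcam stayed positive and Cntn1 negative under each alternative that measured them, while Ncam2, Nrcam, Nptn, Bsg and Icam5 changed sign under at least 1, always short of the threshold. The brightest Ncam1 probe set kept its call except in the mean of all Ncam1 probe sets (-1.005, adjusted p = 0.218), where 2 less specific or dim ones enter. Of all probe sets 2 were called, against 1 with quantile normalization, median centring, no filter or no intensity trend, 4 with array weights and 0 with 1 mean per gene. The count was 1 to 3 when 1 array was left out, with 1 without knockout replicate 1, wild-type replicate 1 or wild-type replicate 2. The cause of these changes was not tested. The wider lists, compared between genotypes under 18 of the 19 alternatives (not with 1 mean per gene), gave 0 calls.

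With the replicate number as a block 0 members passed (Ncam2 -0.13, adjusted p = 0.821) and 2 probe sets were called. Deviations of same-numbered animals correlated at 0.01, 0.15 and 0.20. Knockout replicates 2 and 3 correlated best with the wild-type animal of the same number, and knockout replicate 1 with wild-type replicate 2 (0.08). Same-numbered animals also share their age. The labels describe separate individuals and name no pairs, so the main fit was not paired. Arrays limit the precision by their number, and dim probe sets by their signal over background.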
